A study of Mus musculus with 12 samples.

Results

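The 10 enzymes that build adenine and guanine nucleotides from phosphoribosyl pyrophosphate (PRPP) were followed in the RNA of mouse splenic B lymphocytes. They were chosen by symbol (Ppat, Gart, Pfas, Paics, Adsl, Atic, Adss, Impdh1, Impdh2 and Gmps), all 10 were found among the 24982 gene symbols of the deposited tables, and all 10 passed the filter on low values. Polyadenylated RNA of B cells taken from the spleen at an age of 6 weeks was sequenced from 3 groups of 4 biological replicates, each replicate 1 library. The WT group came from C57BL/J6 mice without the transgene, and the Eμ-Myc group from mice with the Eμ-Myc transgene. The third group, Eμ-Myc; PRPS2 KO, called the knockout group here, carried the same transgene and lacked PRPS2, so both transgenic groups share the Eμ-Myc allele. The transgene puts Myc under the immunoglobulin heavy-chain enhancer, which is active in B-lineage cells. How the PRPS2 knockout was made, the sex of the mice and whether any mice were pooled are not given in the sources used here. The study's design asked first which genes differ in Eμ-Myc B cells and then whether loss of PRPS2 changes that programme.

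Purine synthesis starts from PRPP, which the PRPS enzymes make from ribose 5-phosphate. The first 6 enzymes of the list build inosine monophosphate (IMP) on it step by step, using glutamine, glycine, aspartate, carbon dioxide and formyl groups carried by folate. From IMP the path forks: Adss and Adsl make AMP, and Impdh1 or Impdh2 followed by Gmps make GMP. Ppat is the committed step of the path and is held back by its end products, and several of these genes are textbook targets of MYC.

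MYC with its partner MAX binds the letters CACGTG, a palindrome called the E-box, so this motif was looked for in the promoter windows, 250 bases before to 50 after each start, of the RefSeq table (GRCm38.p6). Of the 10 genes, 9 matched by symbol (Pfas was not matched), and 3 of these 9 held CACGTG: Atic, Impdh2 and Paics. Of the 27025 genes in that set of windows, 8.09% held it. The variant CACGCG, searched on both strands, was in 0 of the 9 and in 10.5% of all genes. The 3 matches lie 7 bases before the start in Atic, 110 in Impdh2 and 203 in Paics. A match describes letters, not binding, which was not measured. The sequences around the 3 matches are shown because these genes are among those with the largest differences below, with the motif in capitals. Genes without the motif rose as much: in Eμ-Myc against WT the log2 fold change was 1.59 for Gart and 1.53 for Ppat, beside 1.59 for Atic. Adsl, Adss, Impdh1 and Gmps, also without it, had smaller ones. Whether the motif goes with the differences was not tested. The Atic stretch, the part of its window before the RefSeq start, is chr1:71556906-71557155 on the plus strand. The GENCODE M21 start of Atic, at 71557150, lies within the motif, so the end of this stretch is annotated there as Atic UTR. The Impdh2 stretch is chr9:108560314-108560343 on the plus strand, within an annotated 5′ UTR of longer Impdh2 transcripts. The Paics stretch is chr5:76951087-76951116, given on the plus strand of Paics, and lies within an annotated UTR of Ppat, which runs the other way.
Atic: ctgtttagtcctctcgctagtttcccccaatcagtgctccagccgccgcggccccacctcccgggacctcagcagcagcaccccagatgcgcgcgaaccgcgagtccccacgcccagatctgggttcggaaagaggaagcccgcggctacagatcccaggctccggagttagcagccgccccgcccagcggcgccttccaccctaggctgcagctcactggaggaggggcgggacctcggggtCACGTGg
Impdh2: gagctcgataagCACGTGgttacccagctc
Paics: cgcctcggaaagCACGTGgagggacctgct

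Ppat and Paics, which carry out the committed step and a later pair of steps, stand head to head on chromosome 5. In RefSeq their first 277 bases overlap on opposite strands, and in GENCODE M21 they share 272 exonic bases. Gart shares 1014 exonic bases, 19.7% of its exons, with the antisense gene Gm15964. The kit keeps strand, but the counting step is not given in the sources used here, so reads in these stretches cannot be assigned with certainty. Similar copies exist, none of them listed in the tables. The processed pseudogene Impdh2-ps is 99.7% identical to Impdh2 over 1545 bases. Stretches of 276 bases of Gmps are 98.9% and 99.3% identical to Gm20656 and Gm20657. The Paics pseudogenes Gm4797 and Gm19241 are less alike, 90.04% over 1285 bases and 91.2% over 904 bases. Coverage of these 3 genes could include or lose reads of the copies.

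Values are coverages of a gene, scaled between libraries and called scaled coverage here. They were taken as means per base, which no source used here states, and the order of levels between genes given below rests on that reading. Summed over genes, a library held a coverage of 1277305.5 to 1885768.9. Read numbers are not known, so the error of a value is its SD over the replicates, and p-values measure the spread between replicate libraries only. As a check of the labels, Prps2 in the knockout libraries lay between 16.4 and 18.4 (mean 17.1 ± 0.95, SD, n = 4), against 242 ± 39.5 in Eμ-Myc libraries and 128 ± 19.4 in WT libraries. Myc averaged 277 ± 53.8 in WT libraries and 1882 ± 321 in Eμ-Myc libraries (SD, n = 4), and knockout libraries ranged from 1107 to 3318. Genes were called where the limma adjusted p was under 0.05 over all genes tested.

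The libraries of a group did not all resemble each other. Across tested genes, knockout libraries 3 and 4 differed from each other by a median of 0.09 in log2 and libraries 1 and 2 by 0.18, while pairs that crossed these sets differed by 0.55 to 0.70. The summed scaled coverage of 7 T-cell markers was 448 and 454 in knockout libraries 1 and 2 but 11.0 and 10.5 in libraries 3 and 4, against 76.7 to 108 in Eμ-Myc and 364 to 1973 in WT. The 6 NK-cell markers split the same way, at 400 and 278 against 16.4 and 16.0. The 8 myeloid markers were at 15492 and 11089 against 3048 and 1329, and the 4 plasma-cell markers at 381 and 443 against 107 and 107. Genes of high coverage weigh most in such sums. In the knockout the myeloid S100a9 averaged 4291 and Cd14 15.3, and the plasma-cell Xbp1 averaged 145 and Prdm1 1.99. Eμ-Myc libraries 1 and 2 differed from 3 and 4 in the same direction for the NK-cell markers (142 and 162 against 70.2 and 60.4) and the myeloid markers (9750 and 16212 against 6633 and 5745). Their T-cell sums (108 and 92.6 against 103 and 76.7) and plasma-cell sums (365 and 384 against 338 and 438) did not separate these pairs. In the knockout the 4 platelet markers (127 and 30.9 against 33.9 and 38.8) did not follow the split of libraries 1 and 2 from 3 and 4. Its 6 erythroid markers (86.0 and 72.6 against 108 and 109.9) were lower in libraries 1 and 2. Summed coverage of 19 proliferation genes was 2751 and 3626 in knockout libraries 1 and 2 and 7905 and 7926 in libraries 3 and 4, against 4570 to 6128 in Eμ-Myc and 959 to 1212 in WT. The 8 B-cell markers, which check the labelled cell type, were all above 0 in every library, with sums from 6664 to 12956. WT libraries 1 and 4 held 6984 and 6664, below every transgenic library, and WT libraries 2 and 3 held 12956 and 11079. Eμ-Myc sums ran from 7668 to 9231 and knockout sums from 7264 to 7582. In Eμ-Myc the proliferation sums were 4570 and 4675 in libraries 1 and 2 and 5814 and 6128 in libraries 3 and 4. The median of the 10 enzymes, each centred on its mean log2 coverage over the 12 libraries, was 0.33 and 0.20 in Eμ-Myc libraries 1 and 2 and 0.56 and 0.66 in libraries 3 and 4, beside -0.19 and 0.13 and then 1.09 and 1.10 in the knockout. WT library 4 held the highest T-cell sum and WT library 1 the highest myeloid sum (25254). The erythroid markers stood at 729 in WT library 4 and at 141, 102 and 65.8 in WT libraries 1 to 3. The part of these other cells in the results below was not tested. In bulk RNA, fewer cells of a type and less RNA per cell cannot be told apart.

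Of the 10 enzymes 9 rose in Eμ-Myc against WT and none fell, while 55.7% of the 12704 genes tested were called in this comparison, 28.3% as higher and 27.4% as lower. The median log2 fold change of the 10 was 1.52, against -0.06 over all genes tested. Impdh1 was the exception and was not called. The groups did not overlap for the 9 called enzymes, as for 52.2% of all genes tested (26.2% with Eμ-Myc higher). The 9 sat in 2 ranges of fold change: 6 between 2.84-fold and 3.10-fold, and Gmps, Adsl and Adss between 1.71-fold and 2.06-fold.

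**Figure D1:**
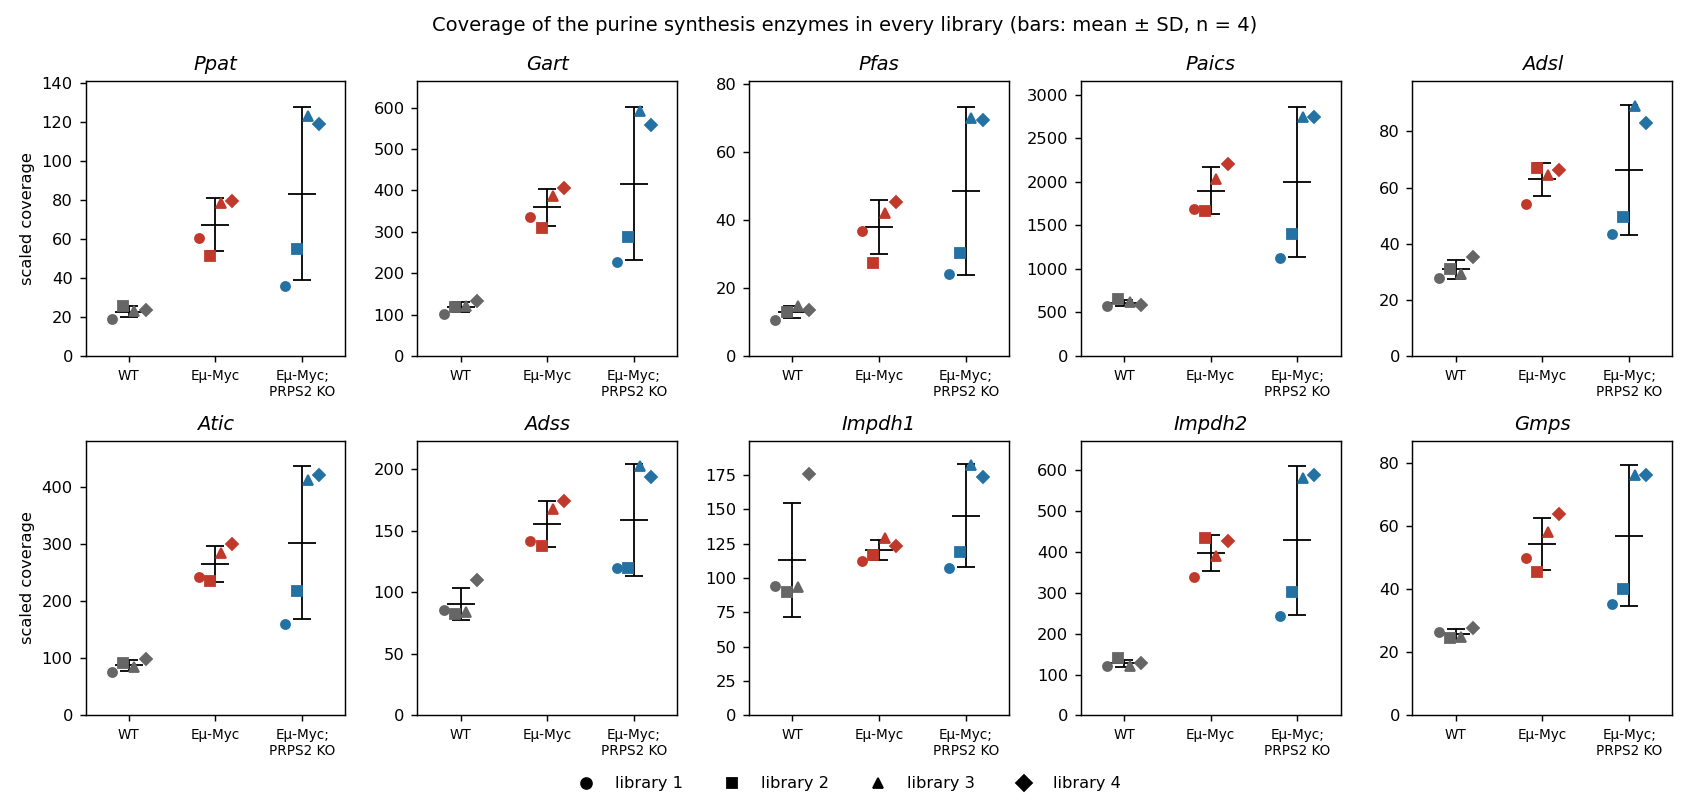
Scaled coverage (y axis, linear, from 0) of each enzyme in each library, by group (x axis); symbols mark the library number and bars the mean ± SD of 4 libraries. In 9 of the 10 panels the Eμ-Myc libraries lie above every WT library, and knockout libraries 3 and 4 lie above libraries 1 and 2 in all 10.

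Ppat, the amidotransferase that commits PRPP to the path, had a scaled coverage of 19.0, 25.5, 23.0 and 23.5 in WT libraries 1 to 4 and of 60.5, 51.2, 78.4 and 79.2 in the Eμ-Myc libraries. Every Eμ-Myc library lay above every WT library, and Eμ-Myc libraries 3 and 4 were the highest. Its log2 fold change was 1.53 ± 0.16 (SE; limma adjusted p = 6.25e-05). Gart, a single protein that carries out 3 of the steps, measured 102, 119, 121 and 132 in WT and 335, 310.0, 386 and 404 in Eμ-Myc. The groups stood apart by 1.59 ± 0.12 in log2 (limma adjusted p = 9.39e-06). Pfas, which adds a glutamine nitrogen, was the least covered enzyme, at 10.5, 12.9, 14.7 and 13.4 in WT and 36.9, 27.3, 42.1 and 45.4 in Eμ-Myc. Even its lowest Eμ-Myc library, library 2, was above all of WT, and the log2 fold change was 1.51 ± 0.18 (limma adjusted p = 1.14e-04).

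Paics, which carboxylates the ring intermediate and joins aspartate to it, was the most covered enzyme in every group. It measured 573, 654, 618 and 588 in WT and 1686, 1660, 2035 and 2208 in Eμ-Myc. The WT values were tight (SD 35.8 around a mean of 608), and the log2 fold change was 1.63 ± 0.12 (limma adjusted p = 7.32e-06). Atic, the last enzyme before IMP, measured 76.9, 91.5, 84.7 and 99.7 in WT and 243, 236, 285 and 300.3 in Eμ-Myc. Its log2 fold change of 1.59 ± 0.12 (limma adjusted p = 9.39e-06) was close to those of Gart and Paics. Adsl acts both before IMP and in the AMP branch, and had the smallest fold change of the IMP path. It measured 27.7, 31.1, 29.2 and 35.3 in WT and 54.1, 67.0, 64.4 and 66.1 in Eμ-Myc, a log2 fold change of 1.02 ± 0.12 (limma adjusted p = 9.31e-05). Whether its fold change differs from those of the other enzymes was not tested.

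On the AMP branch Adss, which joins aspartate to IMP, measured 85.8, 82.5, 84.4 and 110.1 in WT and 142, 138, 168 and 175 in Eμ-Myc. WT library 4 stood above the other WT libraries but below all Eμ-Myc libraries, and the log2 fold change was 0.78 ± 0.13 (limma adjusted p = 7.74e-04). On the GMP branch the paralogs Impdh1 and Impdh2, which oxidise IMP at the rate-limiting step to GMP, gave different calls. Impdh2 measured 120.4, 139, 120.3 and 129 in WT and 339, 434, 390.4 and 427 in Eμ-Myc, with a log2 fold change of 1.63 ± 0.11 (limma adjusted p = 5.12e-06). Impdh1 measured 94.4, 89.8, 93.3 and 175 in WT and 112, 117, 129 and 123 in Eμ-Myc. WT library 4 was above every Eμ-Myc library and the other 3 WT libraries were below them all. Over all libraries its log2 fold change was 0.15 ± 0.20 (limma adjusted p = 0.554, 95% interval -0.31 to 0.60). Without WT library 4, Impdh1 was called at a log2 fold change of 0.38 (limma adjusted p = 0.00997). That fit called all 10 enzymes and 6835 genes, 3542 of these as higher, against 7072 and 3591 with every library. Library quality weights called Impdh1 as well (0.36), making 10 of 10, with 70.5% of genes called, 34.9% as higher. Without WT libraries 1 and 4 it was also called (0.39), making 10 of 10, with 51.1% of genes called, 27.4% as higher. Leaving out this pair was not planned, and it drops WT library 4, which was above every Eμ-Myc library. The call without the pair follows from that choice and supports nothing. Gmps, which aminates the product of Impdh1 and Impdh2 to GMP, measured 26.5, 24.5, 24.8 and 27.8 in WT and 50.0, 45.4, 58.1 and 64.0 in Eμ-Myc, a log2 fold change of 1.04 ± 0.13 (limma adjusted p = 1.27e-04).

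**Figure D2:**
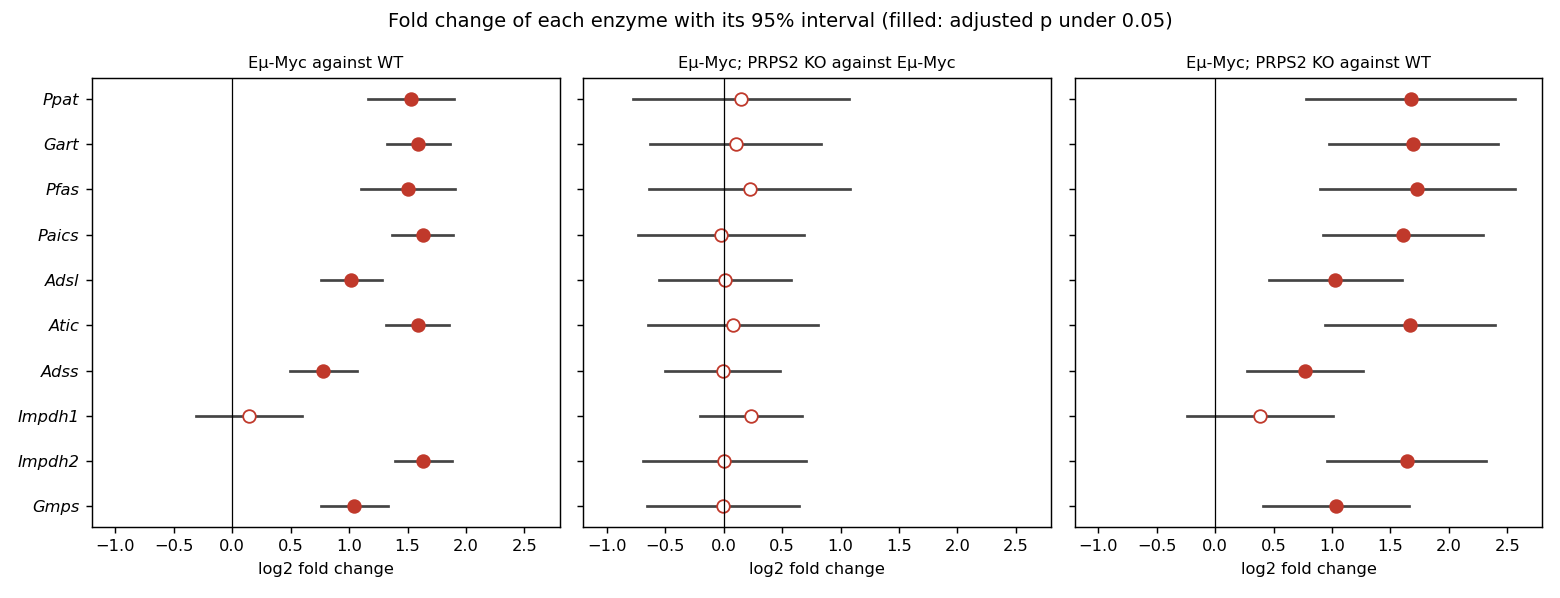
log2 fold change (x axis) of each enzyme in the 3 comparisons, with the 95% limma interval as a line and filled points for an adjusted p under 0.05. Intervals are narrow in Eμ-Myc against WT (9 filled), and wide around 0 in the knockout against Eμ-Myc (0 filled).

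If the values are means per base, the order of the levels in WT began with Paics (608), followed by Impdh2 (127), Gart (119), Impdh1 (113), Adss (90.7), Atic (88.2), Adsl (30.8), Gmps (25.9), Ppat (22.7) and Pfas (12.9). Paics stood clear of Impdh2, Atic of Adsl, and Ppat of Pfas, while the ranges of all other neighbours in this order overlapped. In Eμ-Myc Paics (1897), Impdh2 (398) and Gart (359) again led, Atic (266) stood above Adss (156), and Impdh1 (120) stood in the sixth place. There the ranges of Impdh2 and Gart overlapped, as did those of Ppat (67.3), Adsl (62.9) and Gmps (54.4) as neighbours. In the knockout the order of the means was that of Eμ-Myc, with Paics at 2001 ± 861 (SD, n = 4), and only Paics stood clear of its neighbour.

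Ratios of 2 genes within a library are given below as plain ratios, in which the scaling cancels. They were compared over the 3 pairs of groups as log2 ratios with a pseudocount of 0.5 added to each gene, in which it does not fully cancel, by 9 exact two-sided permutation tests whose smallest possible p is 0.0286. The Impdh2 to Impdh1 ratio was 1.28, 1.55, 1.29 and 0.738 in WT libraries 1 to 4, so Impdh1 exceeded Impdh2 in WT library 4. In Eμ-Myc it was 3.01, 3.71, 3.03 and 3.47, and in the knockout 2.26, 2.53, 3.18 and 3.39. Neither transgenic group overlapped WT, at exact permutation p = 0.0286 each (adjusted over the 9 tests, 0.0857). Leaving out WT library 4, the log2 difference between Eμ-Myc and WT was 1.27 instead of 1.49. The Gmps to Adss ratio, which sets the GMP branch beside the AMP branch, averaged 0.288 ± 0.025 over the WT libraries and 0.349 ± 0.015 over the Eμ-Myc libraries (SD, n = 4). These ranges did not overlap either (exact permutation p = 0.0286, adjusted 0.0857). In the knockout this ratio was 0.295, 0.334, 0.377 and 0.394. The Paics to Ppat ratio, of the head-to-head pair, averaged 26.9 ± 2.30 over WT, 28.5 ± 2.75 over Eμ-Myc and 25.6 ± 4.13 over knockout libraries (SD, n = 4). Its exact permutation p, adjusted over the 9 tests, was 0.441, 0.343 and 0.675 for Eμ-Myc against WT, knockout against Eμ-Myc and knockout against WT. None of the 9 tests passed 0.05 after adjustment.

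**Figure D3:**
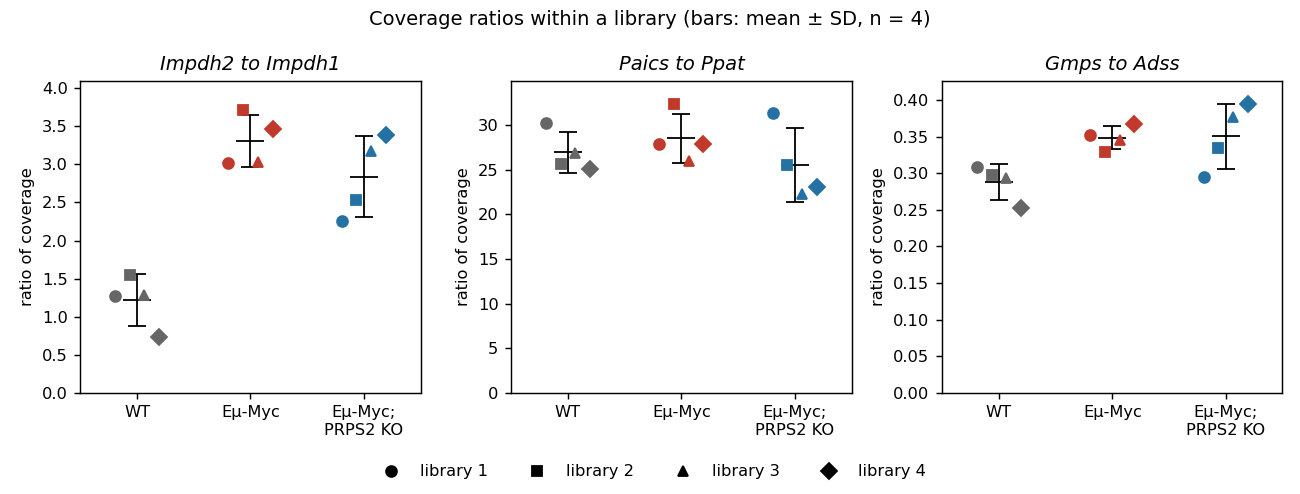
Ratio of scaled coverage within a library (y axis, linear, from 0) for Impdh2 to Impdh1, Paics to Ppat and Gmps to Adss, by group (x axis), with symbols for the library number and bars for mean ± SD of 4 libraries. The Impdh2 to Impdh1 ratio lies between 0.738 and 1.55 in WT and between 2.26 and 3.71 in the other 8 libraries.

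None of the 10 enzymes was called by limma between the knockout and Eμ-Myc. In this comparison 1 of 12559 genes, Prps2 itself, was called (0.00796%; 120 genes had an unadjusted p under 0.05, none of them an enzyme of the list). Of the 10 enzymes 7 had a higher and 3 a lower mean log2 coverage in the knockout, with a median log2 difference of 0.04. Single libraries turned this count: 10 were higher without knockout library 1 (median 0.29), knockout library 2 (0.17) or Eμ-Myc library 4 (0.11), and 9 were lower without knockout library 3 or 4 (medians of -0.12). Without Eμ-Myc library 3, 9 were higher (0.07), and without Eμ-Myc library 1, 5 were (-0.0029). For 0 of the 10 did the groups stand apart, as they did for 1.75% of all genes tested (1.24% with the knockout higher). The largest difference was that of Impdh1, 0.24 ± 0.19 (SE; limma adjusted p = 1.00, 95% interval -0.20 to 0.67). The intervals were wide: for Ppat the difference of 0.14 had a 95% interval from -0.78 to 1.07, and for Paics the difference of -0.02 one from -0.73 to 0.69. Intervals of this width do not show that the levels are alike.

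The knockout libraries lay on both sides of Eμ-Myc. Ppat measured 35.9, 54.6, 123 and 119 in knockout libraries 1 to 4, Gart 228, 288, 591 and 558, and Pfas 24.2, 30.3, 70.0 and 69.5. For all 3, libraries 3 and 4 were above every Eμ-Myc library and library 1 was below them all. Paics measured 1128, 1395, 2740 and 2742, the last of these 145% of the Eμ-Myc mean. Adsl measured 43.4, 49.4, 89.1 and 82.9, and Atic 161, 219, 412 and 422. For Paics, Adsl and Atic libraries 1 and 2 lay between the WT and the Eμ-Myc libraries. In the branches, Adss measured 119.6, 119.6, 202 and 194, Impdh2 242, 301, 579 and 587, and Gmps 35.3, 40.0, 76.4 and 76.4. Impdh1 measured 107, 119, 182 and 173, the smallest SD on the log2 scale (0.38) of the 10 enzymes in this group. Libraries 3 and 4 exceeded every Eμ-Myc library for all 10 enzymes and for 35.8% of all genes tested, while for 26.2% of genes they lay below every Eμ-Myc library. Library 1 lay between the WT and Eμ-Myc ranges for 9 enzymes (29.9% of genes), and library 2 for 7 (29.2% of genes), with the other 3 inside the Eμ-Myc range. Lying between is possible only where the 2 ranges do not overlap. That held for 9 enzymes but for 52.2% of genes tested in Eμ-Myc against WT, while the shares given are of all genes. Libraries 3 and 4 were both above libraries 1 and 2 for all 10 enzymes and for 47.8% of genes, and both below for 39.7% of genes. Libraries 1 and 2 lay below every Eμ-Myc library while 3 and 4 lay above them for 7 of the 10 enzymes and 18.4% of genes. The median SD of log2 coverage of the 10 enzymes was 0.15 over the WT libraries, 0.17 over Eμ-Myc and 0.66 over the knockout, against 0.21, 0.22 and 0.39 over all genes tested.

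**Figure D4:**
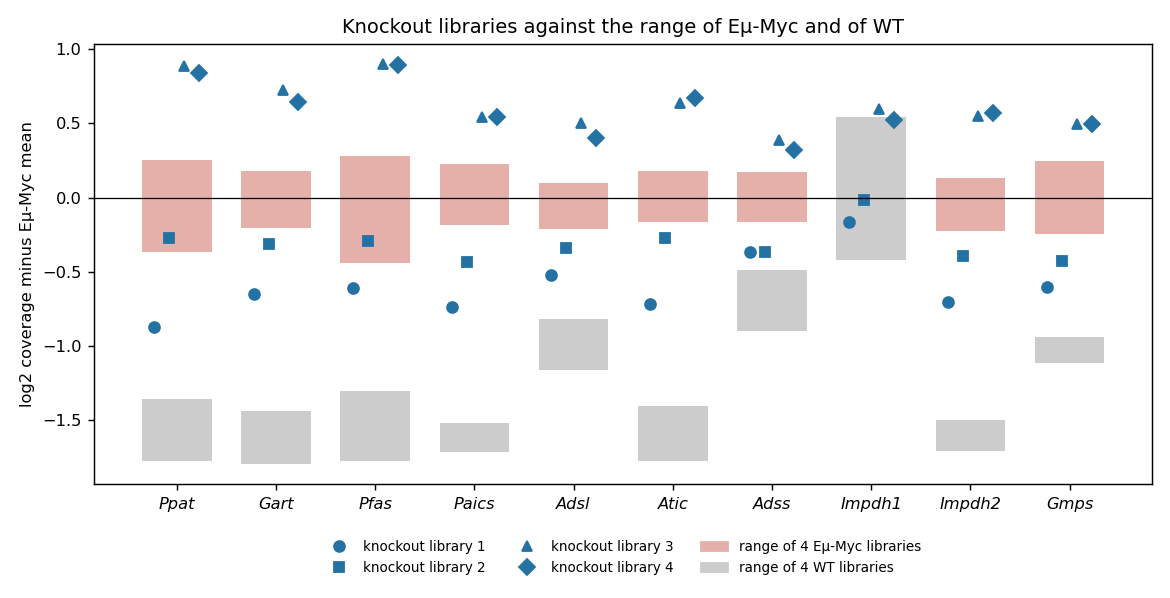
log2 scaled coverage of each knockout library minus the Eμ-Myc mean (y axis) for each enzyme (x axis); red bands span the 4 Eμ-Myc libraries and grey bands the 4 WT libraries. Knockout libraries 3 and 4 lie above the red band for all 10 enzymes, and library 1 below it for all 10.

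Because these libraries stand apart, the comparison was also fitted without each pair. The pairs were chosen after the values above were seen, so the direction of what follows is set by the choice and the calls support nothing. Without knockout libraries 1 and 2, 9 enzymes were called as higher than in Eμ-Myc (30.8% of genes were called, 14.97% as higher), with a median log2 difference of 0.56, and Adss was not (0.35, limma adjusted p = 0.0730). Without libraries 3 and 4 all 10 were lower, with a median difference of -0.49, none was called, and 4.36% of genes were. With library quality weights, which gave libraries 1 and 2 little weight, all 10 were called as higher, while 61.3% of genes were called, 34.7% as higher. The lower-lying libraries were those with more T-cell, NK-cell, myeloid and plasma-cell marker coverage and less of the proliferation genes and of Myc (1107 and 1661 in libraries 1 and 2, 3048 and 3318 in libraries 3 and 4). The part of these in the split was not tested.

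Against WT, 9 of the 10 enzymes were called as higher in the knockout, where 29.4% of the 12710 genes tested were called (17.6% as higher). The comparison shares its WT libraries with that of Eμ-Myc against WT. The log2 fold changes of the 9 ran from 0.77 ± 0.22 for Adss (limma adjusted p = 0.0377) to 1.73 ± 0.36 for Pfas (limma adjusted p = 0.0208). For Ppat it was 1.67 ± 0.39, beside 1.53 ± 0.16 in Eμ-Myc against WT. For Impdh2 it was 1.64 ± 0.30, beside 1.63 ± 0.11. Impdh1 was not called (0.38 ± 0.27, limma adjusted p = 0.266). Every knockout library lay above every WT library for the 9 called enzymes, as for 38.1% of all genes tested (21.1% with the knockout higher). The calls depended on single libraries more than the fold changes did. Without WT library 3, 2, 1 or 4, in that order, 0, 1, 3 and 4 of the 10 were called, and 431, 431, 755 and 1052 of all genes in place of 3735. All 10 were still higher in each of these fits, with median log2 fold changes of 1.61, 1.66, 1.59 and 1.62, against 1.62 with every library. Without knockout library 3 or 4, 4 of the 10 were called each time, among 592 and 511 genes, with medians of 1.42 and 1.43. Without knockout libraries 3 and 4, 8 were called as higher (11.0% of genes were called, 7.96% as higher), and the median log2 fold change was 1.00 instead of 1.62. Without knockout libraries 1 and 2 it was 2.18, and 9 were called as higher (70.0% of genes were called, 35.4% as higher). With library quality weights 10 were called as higher (82.9% of genes were called, 41.2% as higher).

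**Figure D5:**
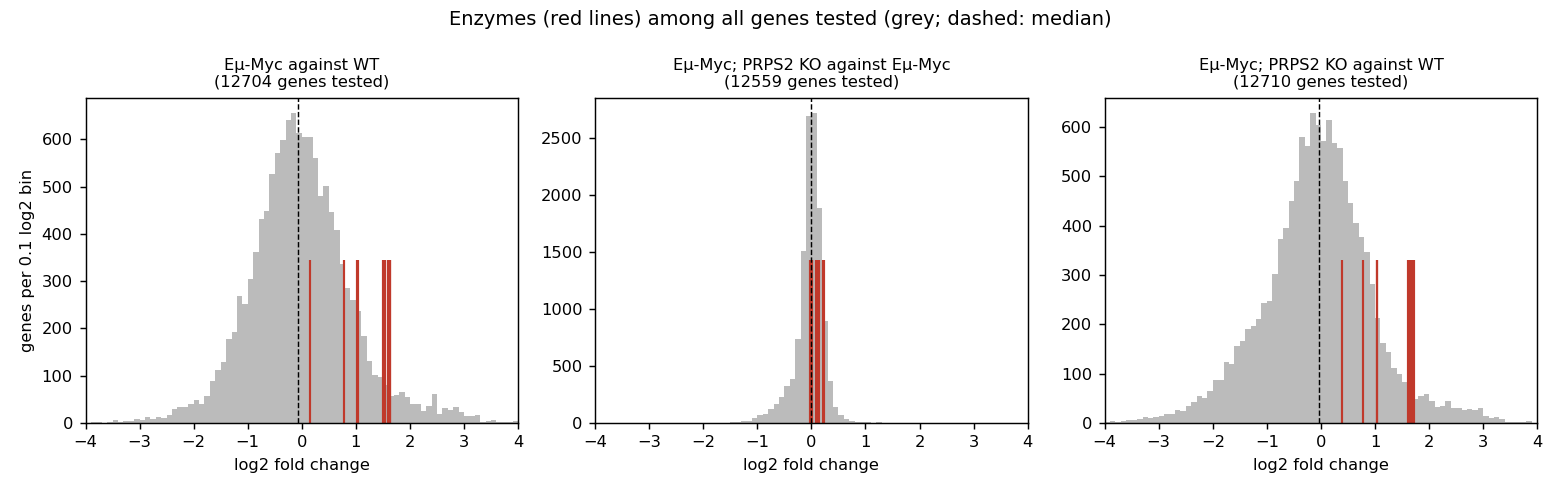
Number of genes per 0.1 log2 bin (y axis) by log2 fold change (x axis, shown from -4 to 4) in the 3 comparisons, with the 10 enzymes as red lines and the median of all genes dashed. The enzymes lie at 0.15 to 1.63 in Eμ-Myc against WT and at -0.02 to 0.24 in the knockout against Eμ-Myc.

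Enzymes that feed the path rose in Eμ-Myc as well, to be read against the 28.3% of all genes that were called higher and the 27.4% called lower. Of 5 tested genes of PRPP supply 4 rose, led by Prps1 (log2 fold change 1.58 ± 0.14, limma adjusted p = 2.61e-05), Prps2 (0.92 ± 0.15) and the Prps1-like gene Prps1l3 (0.87 ± 0.14), whose reads could be shared with Prps1. Folate one-carbon genes, which supply the formyl groups, rose in 10 of 12 tested and fell in 1, Mthfs (-0.91). The serine hydroxymethyltransferase Shmt1 went from 10.6 ± 1.49 to 108 ± 14.6 (SD, n = 4 each) and the folate carrier Slc19a1 from 26.5 ± 5.71 to 139 ± 14.3. All 3 serine synthesis genes rose: Phgdh by 2.13, Psat1 by 2.12 and Psph by 0.94 in log2. In the knockout against Eμ-Myc, Prps2 alone of these 3 lists was called.

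In other nucleotide pathways, counted in Eμ-Myc against WT, 4 of 5 pyrimidine synthesis genes rose, with Ctps (2.18 ± 0.13 in log2), Cad (1.74 ± 0.17) and Umps (1.69 ± 0.12) ahead, and Ctps2 fell (-0.44). Purine salvage and turnover had 7 of 16 tested genes higher and 2 lower, a share of calls near the 55.7% of all genes. Among the called genes of that list, the adenosine kinase Adk (1.82 ± 0.14) and the phosphoribosyltransferases Hprt (1.21 ± 0.11) and Aprt (0.94 ± 0.20) had the largest changes. The pentose phosphate path, the source of ribose 5-phosphate, had 3 of 7 higher: Pgls (1.14), Tkt (0.98) and Rpia (0.77). None of the genes tested in these 3 lists was called in the knockout against Eμ-Myc. All 19 proliferation genes rose in Eμ-Myc, by a median of 2.82 in log2, with Ccnb1, Cdk1 and Ccna2 moving most. All 7 T-cell and all 6 NK-cell markers fell (medians -3.06 and -2.17), and 0 of 8 myeloid and 0 of 6 erythroid markers were called. Of the plasma-cell markers 2 of 4 fell, of the platelet markers 1 of 4, and of the B-cell markers 1 of 8, Cd22. The part of these changes in the enzyme levels was not tested.

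Profiles over the 12 libraries, each gene centred on its own mean log2 coverage, were compared with the median profile of the 10 enzymes. Of 11805 other genes the nearest were Hspa9, Ddx1, Polh, Cct6a and Nsun2, with a mean absolute difference of 0.04, 0.06, 0.06, 0.06 and 0.06 in log2 per library. Among the enzymes themselves this distance was 0.07 for Paics, 0.08 for Gart, Atic and Impdh2, 0.11 for Pfas, 0.12 for Ppat, 0.19 for Gmps, 0.24 for Adsl, 0.32 for Adss and 0.54 for Impdh1. Of the non-member genes, 9 lay nearer to the median than Paics and 3597 nearer than Impdh1. Each enzyme is part of that median and the other genes are not, so the 2 kinds of distance are not on a par. Hspa9, a mitochondrial chaperone, averaged 131 ± 9.63 over WT, 335 ± 52.7 over Eμ-Myc and 399 ± 180 over knockout libraries (SD, n = 4). Depth, makeup and group are shared by all genes of a library, so this nearness is a description with no test.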

How the data were processed

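Polyadenylated RNA of splenic B lymphocytes was purified with TRIzol, and libraries were built with a directional kit, per the labels' protocols. The authors deposited 1 table per library with a coverage per gene, a signal taken here as a mean per base, with 1 decimal and not counts (91.6% of values above 0 were not whole). The submitters' processing notes name DESeq, R 4.3.3 and the build mm10 without saying their role. The aligner, the counting step and the annotation are not given in the sources used here, nor is the read depth, so no counting interval is given.

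Libraries were scaled by trimmed means of log ratios (trimming 30% of the ratios and 5% of the means from either end) against the geometric mean of the 12 libraries, over 13400 genes above 0 in all. The scaling reference was chosen after seeing the data: 45 combinations of 15 references and 3 gene sets were compared with the counts of called genes in view, in an attempt to match the counts of an earlier analysis, which none matched exactly. The closing section gives their range.

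Genes that reached a scaled coverage of 1 in 4 or more of a comparison's 8 libraries were fitted on log2(scaled coverage + 0.5) with limma 3.58.1 in R 4.3.3 (trended, robust, two-sided). Benjamini-Hochberg adjustment covered all genes tested, called under 0.05. Fold changes are on this log2 scale, which understates those of low genes. Named were the 10 enzymes, the 5 genes of nearest profile (Gm and Rik symbols left out), up to 3 called genes per related list with the largest change in Eμ-Myc against WT, and Prps2 and Myc as checks. One gene that this rule names is not reported here. Mthfs, Ctps2 and Cd22 were named after their values were seen. The members, lists and tests were chosen with earlier results of these data known. The method was also run on simulated data, with few changed genes and noise drawn for each gene on its own. Such data hold no split of libraries shared across genes, so that run cannot vouch for the comparisons with the knockout.

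Same-numbered knockout and Eμ-Myc libraries deviated together across genes (r = 0.66, 0.19, 0.25 and 0.61, each above 0.1), so the replicate numbers may pair these libraries, on the evidence of the values and not of the labels. All printed intervals and p-values come from fits and tests without pairing, and the replicate block is an alternative only. For numbers 2 and 3 another Eμ-Myc library correlated better than the same-numbered one. Alternatives were scaling by the median of ratios or by total coverage, other filters and pseudocounts, 1 fit of all 12 libraries, a replicate block, library quality weights and leaving out libraries. Positions come from GENCODE M21 (GRCm38), copies from blastn 2.17.0, and figures from Python 3.11.15 with pandas 2.3.3, numpy 2.4.6 and matplotlib 3.10.9.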

Additional observations from a re-analysis of the deposited data

Results flagged for a closer look

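In WT, library 4 stood away from the other 3 WT libraries by a test for a single outlying value (Dixon) for 2 of the enzymes: Impdh1 at a scaled coverage of 175 against 89.8 to 94.4, and Adss at 110.1 against 82.5 to 85.8. The gap to the nearest library was 0.947 of the whole range for Impdh1 and 0.881 for Adss. Of 39 groups of 4 values tested 2 stood out, and chance gives about 1 in 20. WT library 4 also had the highest T-cell and NK-cell marker sums (1973 and 998), whose part was not tested.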

How the results depend on the processing

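In Eμ-Myc against WT the 9 enzymes stayed higher and called under every alternative run. Impdh1 was also called with library quality weights (0.36, limma adjusted p = 0.0254), without WT library 4, and without WT libraries 1 and 4 (0.39, limma adjusted p = 0.0195). Leaving out that pair was not planned, and the calls of Impdh1 made without WT library 4 follow from leaving it out and support nothing. Over the 45 combinations of scaling reference and gene set, 6936 to 7254 genes and 9 enzymes were called there, 1 gene and 0 enzymes in the knockout against Eμ-Myc, and 3511 to 4134 genes and 9 enzymes in the knockout against WT. Scaling by total coverage moved the median of all genes in Eμ-Myc against WT from -0.06 to -0.19, and the genes called as higher from 3591 of 7072 to 3057 of 7284. The median of the enzymes was then 1.39.

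In the knockout against Eμ-Myc the differences near 0 changed sign easily. Scaling to 1 reference library, the first version run, gave -0.014 for Adsl and -0.020 for Impdh2. Library quality weights, which gave knockout libraries 1 and 2 weights of 0.085 and 0.13, called 7698 genes (61.3%) and 10 enzymes, with Paics at 0.43, Adss at 0.24 and Gmps at 0.38. Without knockout libraries 1 and 2 the calls were 3760 genes and 9 enzymes, with Paics at 0.54, Adss at 0.35 and Gmps at 0.50. Without libraries 3 and 4, 541 genes were called, with Ppat at -0.57, Gart at -0.48, Pfas at -0.45, Adsl at -0.43, Atic at -0.50, Impdh1 at -0.088 and Impdh2 at -0.55. The Gmps to Adss log2 ratio was 0.0015 with a pseudocount of 2. Leaving out each library in turn gave -0.15 to 0.19 for Adsl, -0.14 to 0.11 for Adss, -0.12 to 0.34 for Atic, -0.10 to 0.35 for Gart, -0.18 to 0.19 for Gmps, -0.18 to 0.24 for Impdh2, -0.21 to 0.22 for Paics, -0.0035 to 0.50 for Pfas, -0.10 to 0.48 for Ppat and -0.059 to 0.077 for the Gmps to Adss log2 ratio. The cause of these changes was not tested.

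In the knockout against WT, same-numbered libraries did not all deviate together (r from -0.42 to 0.40). A replicate block called 1591 genes and 7 enzymes (Adss and Gmps at limma adjusted p = 0.0506 and 0.0517), in the knockout against Eμ-Myc it changed no call, and in Eμ-Myc against WT it called 7301 genes and 9 enzymes. All 12 libraries in 1 fit called 6022 genes, quality weights 10533, knockout libraries 1 and 2 left out 8622, and libraries 3 and 4 left out 1368. Leaving out each library gave 431 to 6667 genes and 0 to 9 enzymes.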
